A study of Mus musculus with 8 samples.

Results

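Glutathione transferases join reduced glutathione to reactive compounds and so make them water-soluble for export. The mu class is 1 of several classes of the cytosolic enzymes, which work as dimers, and Gsta4, of the alpha class, prefers aldehydes that arise when membrane lipids are oxidised. In the rat testis, Sertoli cells, which surround the germ cells, and Leydig cells, which make testosterone, are known to contain such enzymes. The genes described here are Gstm1, Gstm2, Gstm5 and Gstm6 of the mu class, with Gsta4 for comparison. All 11 probe sets annotated to these 5 genes were taken (2 each for Gstm1, Gstm2 and Gstm6, 4 for Gstm5 and 1 for Gsta4), out of 12488 probe sets for 8252 genes on the array, and all 11 passed the filter on low values, as did 8452 probe sets in all. The genes were picked with differences between knock-out and wild-type gonads of these same arrays in view, so those differences are given as values without a test.

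Embryonic mouse gonads were hybridised to 8 Affymetrix MG_U74Av2 arrays, with 1 array for each group and no replicate. The groups were Wnt4 knock-out (KO) male gonads at embryonic day 14.5 (E14.5), wild-type (WT) males at E14.5, KO males at E12.5, WT males at E12.5, KO females at E14.5, WT females at E14.5, KO females at E12.5 and WT females at E12.5. Wnt4 encodes a secreted signal with a known role in the fetal ovary. The labels give neither the strain, the form of the knock-out allele nor the number of embryos in a sample. All levels below are log2 signals after each array was centred on a common median, and values under a floor of 6.99, the 40th percentile of all values, were set to it for the fits and for pair differences. A probe set's level depends on its own probes, so levels are compared between arrays and not between probe sets, with exceptions in the gene lists. There the probe set with the highest mean signal stood for each gene, and summed list levels give brighter probe sets more weight.

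The Wnt4 probe set read 9.19 in KO males and 9.42 in WT males at E14.5, and 8.34 in KO males and 9.26 in WT males at E12.5. In females it read 8.32 in KO and 9.45 in WT at E14.5, and 8.59 in KO and 10.19 in WT at E12.5. It was thus lower in KO in all 4 pairs. At E14.5 the Y-linked Eif2s3y read 4.86 in the KO female and 7.63 in the WT female. Cyp17a1, an androgen synthesis enzyme, read 8.13 in the KO female and 10.36 in the WT female. The WT female E14.5 array thus carried some male-type transcripts. It also kept the female-type Xist, at 7.10, against 8.13 in the KO female and 4.79 and 4.33 in the KO and WT males of that stage. The Y-linked Kdm5d and Uty did not pass the filter. They read 6.31 and 5.02 in the WT female, against 6.37 and 4.56 in the KO female. The 2 E14.5 male arrays correlated with the other 6 at r = 0.73 to 0.79 over the fitted probe sets, whereas those 6 correlated among themselves at 0.95 to 0.99. Spike-in controls averaged 9.48 to 10.09 on the male arrays and 8.83 to 9.05 on the female arrays, and the actin 3′ minus 5′ difference was 0.96 to 1.37 in males and 0.48 to 0.77 in females. The spike-in and actin ranges of males and females did not overlap, so on these arrays their part in a sex difference cannot be told apart from sex. The part of the other array differences in the results below was not tested. Results that rest on such arrays are also given without 1 or more of them; the sex difference at E14.5 and the stage difference in males cannot be computed without both E14.5 male arrays.

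The 7 mu class genes lie in 1 cluster on mouse chromosome 3, in the order Gstm5, Gstm7, Gstm6, Gstm3, Gstm2, Gstm1 and Gstm4, while Gsta4 is on chromosome 9. Gstm4 and Gstm7 have no probe set on this array, and Gstm3 has 2. Runs of bases shared between start regions were sought for some of these genes. Among Gstm1, Gstm2, Gstm3, Gstm5 and Gstm6, the start regions of Gstm3 and Gstm1 share an unbroken run of 16 bases, the longest of any pair, and those of Gstm3 and Gstm2 share 14. Both runs are shown in 30 bases of the reference (RefSeq, build GRCm38.p6, minus strand), with the shared bases in capitals. In the other pairs of start regions the longest run was 7 to 13 bases, and the run that unrelated regions share was not computed. Probe sequences were not used here, so these runs do not say which transcripts a probe set reads.
Gstm3, shared with Gstm1, chr3:107969142-107969171: gccagtcTGAGAAGACCACAGCAtcagcgc
Gstm1, shared with Gstm3, chr3:108017777-108017806: gccagttTGAGAAGACCACAGCAccagcac
Gstm3, shared with Gstm2, chr3:107969125-107969154: acagcatcagcgccATGCCTATGACACTgg
Gstm2, shared with Gstm3, chr3:107986372-107986401: ccagcactATGCCTATGACACTaggttact

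The promoters of Gstm6 and Gstm1, whose probe sets were all higher in males in the results below, and of Gstm2 and Gstm5, whose probe sets disagreed, are shown next. Each is 300 bases, from 250 before to 50 after an annotated start, from RefSeq on build GRCm38.p6. Capitals mark matches to TATAAA, the TATA box, and to TGACNNNGC, the core of the antioxidant response element that the stress factor NRF2 binds.
Gstm6, chr3:107953417-107953716, minus strand: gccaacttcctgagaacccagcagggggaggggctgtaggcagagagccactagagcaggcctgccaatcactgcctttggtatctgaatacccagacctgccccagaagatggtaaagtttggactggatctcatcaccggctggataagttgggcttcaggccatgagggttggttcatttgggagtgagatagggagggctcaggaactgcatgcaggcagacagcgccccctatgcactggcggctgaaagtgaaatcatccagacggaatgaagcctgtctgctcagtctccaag
Gstm1, chr3:108017769-108018068, minus strand: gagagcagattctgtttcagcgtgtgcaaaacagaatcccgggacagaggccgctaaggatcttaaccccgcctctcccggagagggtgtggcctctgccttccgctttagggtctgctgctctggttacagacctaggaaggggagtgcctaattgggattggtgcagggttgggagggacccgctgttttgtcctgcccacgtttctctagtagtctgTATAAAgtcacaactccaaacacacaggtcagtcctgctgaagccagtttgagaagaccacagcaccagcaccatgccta
Gstm2, chr3:107986371-107986670, minus strand: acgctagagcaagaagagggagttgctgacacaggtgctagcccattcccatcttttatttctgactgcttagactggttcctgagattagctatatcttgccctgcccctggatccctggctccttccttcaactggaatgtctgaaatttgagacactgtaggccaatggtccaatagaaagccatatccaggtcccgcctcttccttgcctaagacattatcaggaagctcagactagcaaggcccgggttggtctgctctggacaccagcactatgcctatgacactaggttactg
Gstm5, chr3:107895604-107895903, plus strand: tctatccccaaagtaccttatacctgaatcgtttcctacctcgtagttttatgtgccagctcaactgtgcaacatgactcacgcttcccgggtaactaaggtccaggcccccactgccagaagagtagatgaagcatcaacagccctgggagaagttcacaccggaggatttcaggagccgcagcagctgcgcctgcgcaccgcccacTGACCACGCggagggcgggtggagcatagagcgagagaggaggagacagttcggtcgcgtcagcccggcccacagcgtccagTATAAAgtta
On both strands, Gstm5 held 1 TGACNNNGC, which 12.4% of 32851 mouse promoter windows of that length hold, and 1 TATAAA downstream of its start. Gstm1 held TATAAA upstream of its start, as 13.6% of windows do in either place. Neither motif was in the window of Gstm2, in that of the other annotated start of Gstm1 or in any of the 3 of Gstm6. CAAGGTC, read by the steroidogenic factor NR5A1, and AACAAT, read by SOX factors, were in none of these 4 windows, against 3.96% and 10.7% of all windows. AGATAA, read by GATA factors, was in none of the 4 and in 11.2% of all. A Gsta4 sequence was not used here.

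Gstm6 gave the widest range among these genes, and it was higher in male than in female gonads at both stages. Its probe set 104637_at read 8.83 in the KO male and 9.41 in the WT male at E14.5, against 6.91 in the KO female and 8.07 in the WT female of that stage. At E12.5 it read 8.17 in the KO male and 8.85 in the WT male, against 7.01 in the KO female and 7.28 in the WT female. Every male array was above every female array, and the KO female at E14.5 was under the floor. The male minus female difference was 1.59 ± 0.20 at E14.5 (SE of the limma fit on 8 arrays, 3.01-fold, adjusted p = 0.00132) and 1.36 ± 0.20 at E12.5 (2.57-fold, adjusted p = 0.0257).

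The other Gstm6 probe set, 104636_at, was also higher in every male array than in every female array. It read 7.54 in the KO male and 8.14 in the WT male at E14.5, and 7.13 in the KO male and 7.87 in the WT male at E12.5. In females it read 4.49 in KO and 7.12 in WT at E14.5, and 5.54 in KO and 5.55 in WT at E12.5. The lowest male array, at 7.13, was barely above the highest female array, at 7.12. Of the 4 female arrays only the WT female at E14.5 was above the floor, so the floored differences, 0.79 ± 0.06 at E14.5 (adjusted p = 0.000232) and 0.52 ± 0.06 at E12.5 (adjusted p = 0.0220), understate the distance. The floor also set the other female arrays to 1 value and so removed their spread, which narrows these SEs and lowers these adjusted p-values. Without a floor the differences were 2.04 (adjusted p = 0.0121) and 1.95 (adjusted p = 0.0477).

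**Figure D1:**
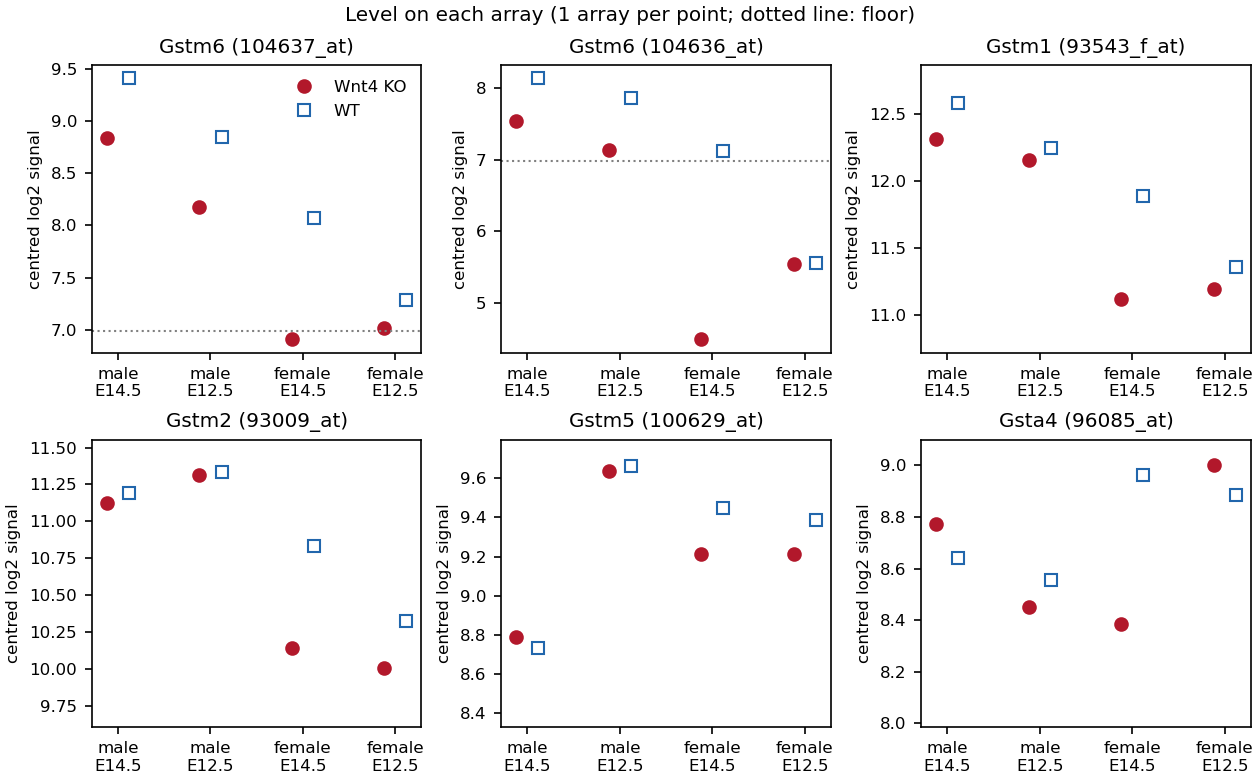
Centred log2 signal of 6 probe sets on each of the 8 arrays, 1 point per array, with Wnt4 KO (filled circles) left of WT (open squares) at each sex and stage and the floor of 6.99 as a dotted line; y axes differ between panels and do not start at 0. Gstm6, Gstm1 93543_f_at and Gstm2 93009_at sit higher in all 4 male arrays than in all 4 female arrays, while Gstm5 100629_at and Gsta4 do not.

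Gstm1, which encodes an abundant mu class subunit of mouse liver, was likewise higher in males at both stages. Its probe set 93543_f_at read 12.32 in the KO male and 12.59 in the WT male at E14.5, against 11.12 in the KO female and 11.89 in the WT female. At E12.5 it read 12.16 in the KO male and 12.25 in the WT male, against 11.20 in the KO female and 11.36 in the WT female. The groups did not overlap, and the difference was 0.95 ± 0.15 at E14.5 (1.93-fold, adjusted p = 0.00341) and 0.93 ± 0.15 at E12.5 (1.90-fold, adjusted p = 0.0296). The suffix _f marks probes that match several members of a gene family, so this signal may come from more than 1 mu class gene. The other Gstm1 probe set, 161633_r_at, was also higher in males, by 1.15 ± 0.07 at E14.5 (adjusted p = 0.000143) and 0.51 ± 0.07 at E12.5 (adjusted p = 0.0244).

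Gstm2 encodes another mu class subunit. Its probe set 93009_at read 11.12 in the KO male and 11.19 in the WT male at E14.5, against 10.14 in the KO female and 10.83 in the WT female. At E12.5 it read 11.31 in the KO male and 11.34 in the WT male, against 10.01 in the KO female and 10.32 in the WT female. Males were above females without overlap, by 0.67 ± 0.10 at E14.5 (adjusted p = 0.00249) and 1.16 ± 0.10 at E12.5 (2.23-fold, adjusted p = 0.0214). Its second probe set, 161357_r_at, did not share this: it differed by 0.90 ± 0.07 at E14.5 (adjusted p = 0.000279) and by -0.22 ± 0.07 at E12.5, which did not pass (adjusted p = 0.0924).

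Gstm5, the mouse counterpart of a human mu class gene that is prominent in testis and brain, had 4 probe sets that disagreed. The unique probe set 100629_at was lower in males at E14.5, by -0.57 ± 0.06 (adjusted p = 0.000706), and higher in males at E12.5, by 0.35 ± 0.06 (adjusted p = 0.0307). The probe set 100631_r_at went the other way, with 0.59 ± 0.06 at E14.5 (adjusted p = 0.000762) and -0.46 ± 0.06 at E12.5 (adjusted p = 0.0238). The probe set 100630_f_at lay between 11.51 and 11.75 on all 8 arrays and passed at neither stage, with 0.06 ± 0.05 at E14.5 (adjusted p = 0.298) and -0.10 ± 0.05 at E12.5 (adjusted p = 0.230). The fourth, 161722_f_at, was above the floor on 3 arrays only, and differed by 0.58 ± 0.03 at E14.5 (adjusted p = 0.000126) and by -0.02 ± 0.03 at E12.5 (adjusted p = 0.794). Without a floor it differed by 1.04 at E14.5 (adjusted p = 2.79e-05) and by -0.33 at E12.5, where it then passed (adjusted p = 0.0262). No common direction for Gstm5 could therefore be given.

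Gsta4 read 8.77 in the KO male and 8.64 in the WT male at E14.5, against 8.39 in the KO female and 8.96 in the WT female. At E12.5 it read 8.45 in the KO male and 8.56 in the WT male, against 9.0 in the KO female and 8.89 in the WT female. Male and female arrays overlapped over the 8 arrays, and neither difference passed, with 0.03 ± 0.18 at E14.5 (adjusted p = 0.887) and -0.44 ± 0.18 at E12.5 (adjusted p = 0.150).

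Over the 11 probe sets at E12.5, 6 were called higher in males, where 7.79% of all fitted probe sets were, and 1 was called lower, where 8.51% were. The median difference of the 11 was 0.35. At E14.5, 8 were called higher, against 39.5% of all, and 1 lower, against 38% of all. All 4 male arrays stood above all 4 female arrays for 5 of the 11 probe sets, namely both of Gstm6, both of Gstm1 and 93009_at of Gstm2, against 10.8% of all fitted probe sets. At E12.5 alone this held for 6 of the 11, against 31.9%. On the values as deposited the split of all calls was 2460 higher and 413 lower at E12.5, beside 658 and 719 after centring, which took 0.32 and 0.34 log2 units from the male E12.5 arrays and 0.17 and 0.20 from the female ones. At E14.5 it was 1690 higher and 4460 lower, beside 3339 and 3212. The Gstm6, Gstm1 and Gstm2 differences with calls at both stages kept their sign on the deposited values.

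The E12.5 calls did not hold when arrays were removed or when probe sets of low values were kept. With no filter on low values all 7 calls were lost, at adjusted p of 0.0878 to 0.153, and the calls over all probe sets fell to 31, against 1377 with the filter. Without the 2 E14.5 male arrays the Gstm6 104637_at difference at E12.5 kept its size of 1.36 at an adjusted p of 0.160, and limma called none of the fitted probe sets (2575 at an unadjusted p under 0.05). Leaving out any 1 array also ended every E12.5 call, with Gstm6 104637_at between 0.95 and 1.77, Gstm1 93543_f_at between 0.62 and 1.23 and Gstm2 93009_at between 0.97 and 1.35. A fit without an array has no residual spread for the sex of that array, so its error comes from the other sex alone. Calls kept or lost in such fits therefore also depend on which sex gives the error. At E14.5, without the WT female array that carried male-type transcripts, the difference was 2.0 for Gstm6 104637_at (adjusted p = 0.00807), 1.25 for Gstm1 93543_f_at (adjusted p = 0.00873) and 0.86 for Gstm2 93009_at (adjusted p = 0.00895). Without the KO male E14.5 array these calls were lost, with 1.54 (adjusted p = 0.101), 1.04 (adjusted p = 0.115) and 0.70 (adjusted p = 0.103). They were also lost without the WT male E14.5 array (adjusted p = 0.0917, 0.149 and 0.114) and without the WT male E12.5 array (adjusted p = 0.0547, 0.0751 and 0.0619) or the KO male E12.5 array (adjusted p = 0.0548, 0.0751 and 0.0619).

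**Figure D2:**
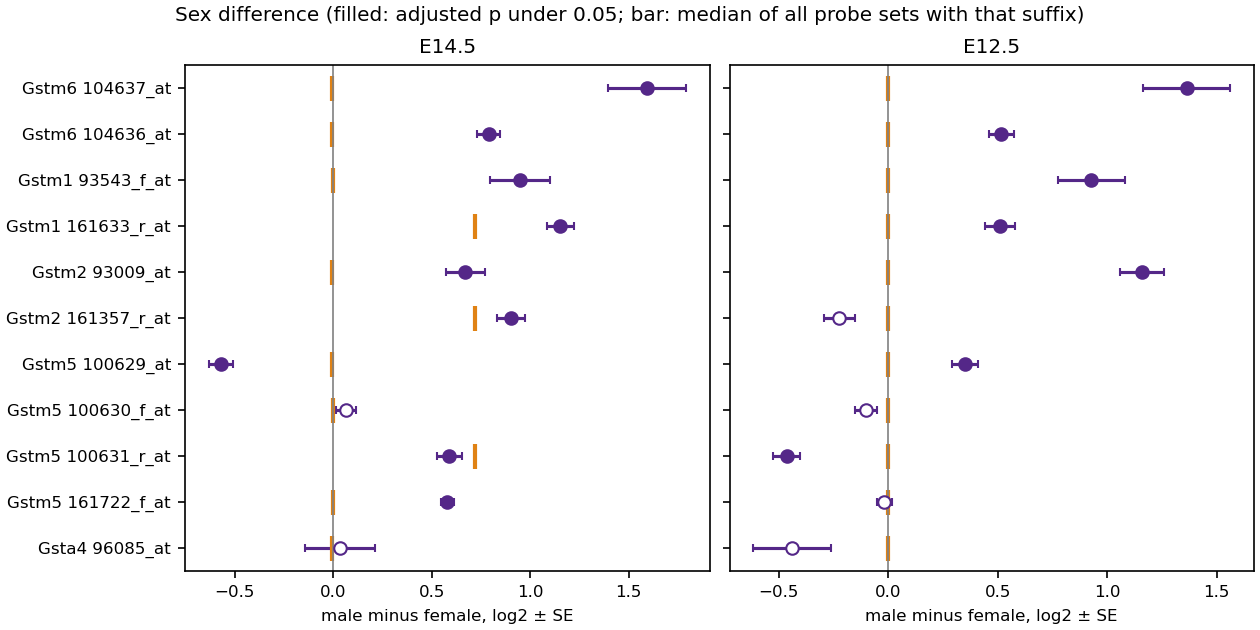
Male minus female log2 difference with its SE for the 11 probe sets, at E14.5 (left) and E12.5 (right), from limma on 8 arrays; filled points passed at an adjusted p of 0.05, and the orange bars give the median of all fitted probe sets with the same suffix. Gstm6, Gstm1 and 93009_at of Gstm2 lie right of 0 at both stages, and at E14.5 the bar of _r_at probe sets lies at 0.72.

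The suffix of a probe set went with its difference at E14.5. The suffix _r marks probe sets for which some probe selection rules were dropped. The 441 fitted _r_at probe sets had a median male minus female difference of 0.72 at E14.5, with quartiles of 0.23 and 1.15, and 349 of them were called higher in males. At E12.5 their quartiles were -0.12 and 0.12. The 6805 probe sets without a suffix letter had a median of -0.01 at E14.5. The E14.5 values of 161633_r_at, 161357_r_at and 100631_r_at, which lay between 0.59 and 1.15, were thus inside or at the edge of what such probe sets gave on these arrays. At E12.5 all 3 were outside the quartiles there, 161633_r_at above them at 0.51, and 161357_r_at and 100631_r_at below them at -0.22 and -0.46.

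Probe sets of different genes followed each other more closely than some of 1 gene. Over the 8 arrays, Pearson r was 0.98 between Gstm6 104637_at and Gstm1 93543_f_at, 0.95 between Gstm1 93543_f_at and Gstm2 93009_at and 0.90 between Gstm6 104637_at and Gstm2 93009_at. Over the 6 arrays left when the E14.5 males are set aside, these were 0.98, 0.99 and 0.95. The Gstm6 pair of probe sets had r = 0.96 over 8 arrays and 0.97 over 6, and the Gstm1 pair 0.80 and 0.70. The Gstm2 pair had 0.21 over 8 and -0.76 over 6. Gstm5 100629_at had r = -0.97 with 100631_r_at of the same gene over 8 arrays and -0.89 over 6. With Gstm2 93009_at it had 0.05 over 8 and 0.98 over 6, and with Gstm1 93543_f_at -0.23 and 0.97. These values describe 8 arrays that share sex, stage and processing, and whether 1 transcript was read by probes of several genes was not tested.

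**Figure D3:**
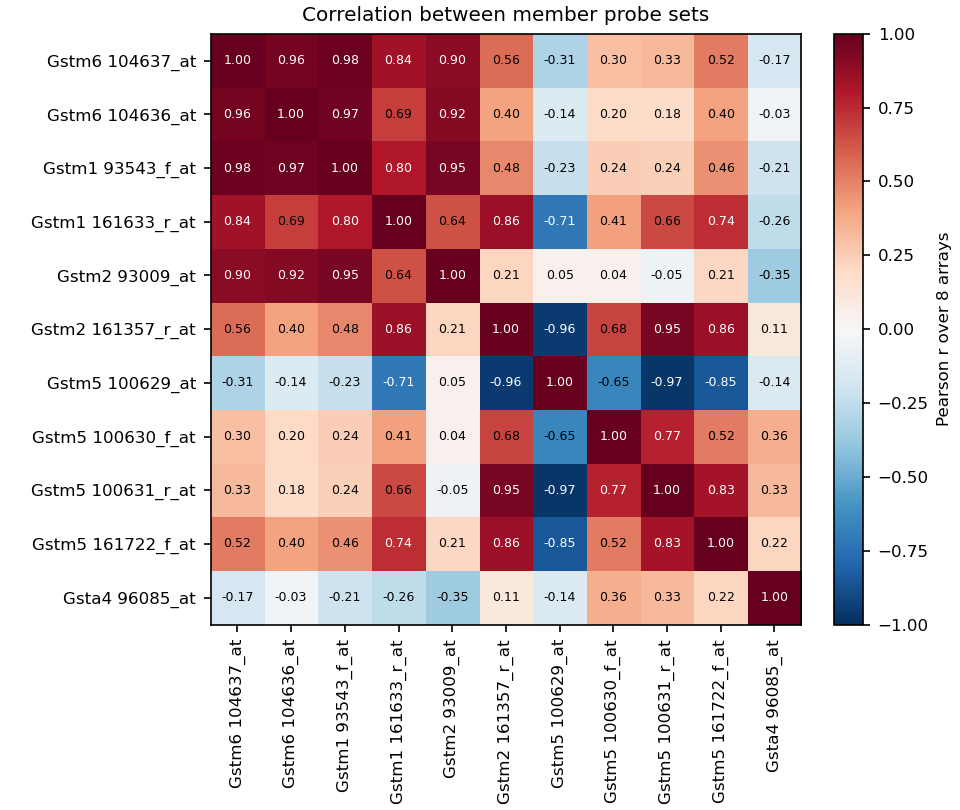
Pearson r over the 8 arrays between every pair of the 11 probe sets, on centred log2 signals without a floor, with red for positive and blue for negative values. The block of Gstm6, Gstm1 93543_f_at and Gstm2 93009_at has r of 0.90 or more, while Gstm5 100629_at has r of -0.97 with 100631_r_at.

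Between the stages in females, none of the 11 probe sets passed limma's threshold, against 23.1% of all fitted probe sets, and 2 had an unadjusted p under 0.05. That count rests on the floor and the centring. Without a floor 161722_f_at (-0.48, adjusted p = 0.00734) and 161633_r_at (0.27, adjusted p = 0.0385) passed, and on the values as deposited 4 probe sets of Gstm5 and 1 of Gsta4 passed, all lower at E14.5, by -0.20 to -0.52. In the fit on centred values with the floor, the largest differences were 0.38 ± 0.20 for Gstm6 104637_at (adjusted p = 0.225) and 0.32 ± 0.10 for Gstm2 93009_at (adjusted p = 0.0801). E14.5 minus E12.5 was -0.03 for Gstm6 104637_at, 0.13 for Gstm2 93009_at and -0.08 for Gstm1 93543_f_at in KO females, against 0.79, 0.51 and 0.53 in WT females. Without the WT female E14.5 array the Gstm6 value was -0.03.

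Between the stages in males, 7 probe sets were called higher at E14.5, against 38% of all, and 1 lower, against 39.9% of all. Gstm6 104637_at was higher by 0.61 ± 0.20 (adjusted p = 0.0384) and 104636_at by 0.34 ± 0.06 (adjusted p = 0.00411). Without the KO male E14.5 array both calls were lost (adjusted p = 0.366 and 0.0890), as they were without the KO male E12.5 array (0.371 and 0.0923) or the WT male E12.5 array (0.312 and 0.0513), and without the WT male E14.5 array that of 104637_at was lost (0.306). The call of 104637_at was also lost with no filter on low values (adjusted p = 0.177), and that of 104636_at without a floor (adjusted p = 0.578) and with 1 genotype term for both sexes (adjusted p = 0.128). On the values as deposited, without centring, the Gstm6 probe sets 104637_at and 104636_at were lower at E14.5, by -0.17 and -0.44. The E14.5 male arrays had received 0.43 and 0.47 log2 units by centring, so the direction for Gstm6 in males rests on that step. The 3 _r_at probe sets were higher by 0.91 to 1.21, beside a median of 0.78 for all _r_at probe sets. Gstm1 93543_f_at differed by 0.25 ± 0.15 (adjusted p = 0.195), Gstm2 93009_at by -0.17 ± 0.10 (adjusted p = 0.178) and Gsta4 by 0.20 ± 0.18 (adjusted p = 0.339), none of which passed. Gstm5 100629_at was lower by -0.89 ± 0.06 (adjusted p = 0.000171), while 161722_f_at was higher by 0.58 ± 0.03 (adjusted p = 0.000115) and 100630_f_at by 0.22 ± 0.05 (adjusted p = 0.0121), the last losing its call without the WT male E14.5 array (adjusted p = 0.0532) or the WT male E12.5 array (adjusted p = 0.0536) and turning to -0.56 on the values as deposited.

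In the Wnt4 KO males, Gstm6 read lower than in WT males at both stages and with both probe sets. The KO minus WT difference of 104637_at was -0.57 at E14.5 and -0.68 at E12.5, and that of 104636_at was -0.60 and -0.74. The other genes moved less: Gstm1 93543_f_at differed by -0.27 and -0.10, Gstm2 93009_at by -0.07 and -0.02 and Gsta4 by 0.13 and -0.11. All are descriptions of 1 KO array against 1 WT array. None of the 11 was lower in KO males by 2-fold or more, against 0.0237% of probe sets at E14.5 and 0.0355% at E12.5.

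In females the largest KO differences were at E14.5. Gstm6 104637_at was at least 1.09 log2 units lower in KO, since the KO array was under the floor, as was Gstm1 93543_f_at by -0.77, Gstm2 93009_at by -0.69 and Gsta4 by -0.57. At E12.5 these were -0.27, -0.16, -0.31 and 0.11, and none of the 11 was lower in KO by 2-fold or more, against 0.177% of probe sets. For 104636_at both arrays were under the floor at E12.5, and at E14.5 the floored difference was -0.13. On floored values 1 of the 11 was lower in KO by 2-fold or more in the E14.5 female pair, against 0.189% of probe sets. The WT array of that pair is the one with male-type transcripts, and without it the female KO values are those of E12.5. All 4 pairs were negative for 3 of the 11 probe sets, Gstm6 104637_at, Gstm1 93543_f_at and Gstm2 93009_at, against 3.77% of all probe sets; the genes were chosen on such differences, so nothing is read from this.

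**Figure D4:**
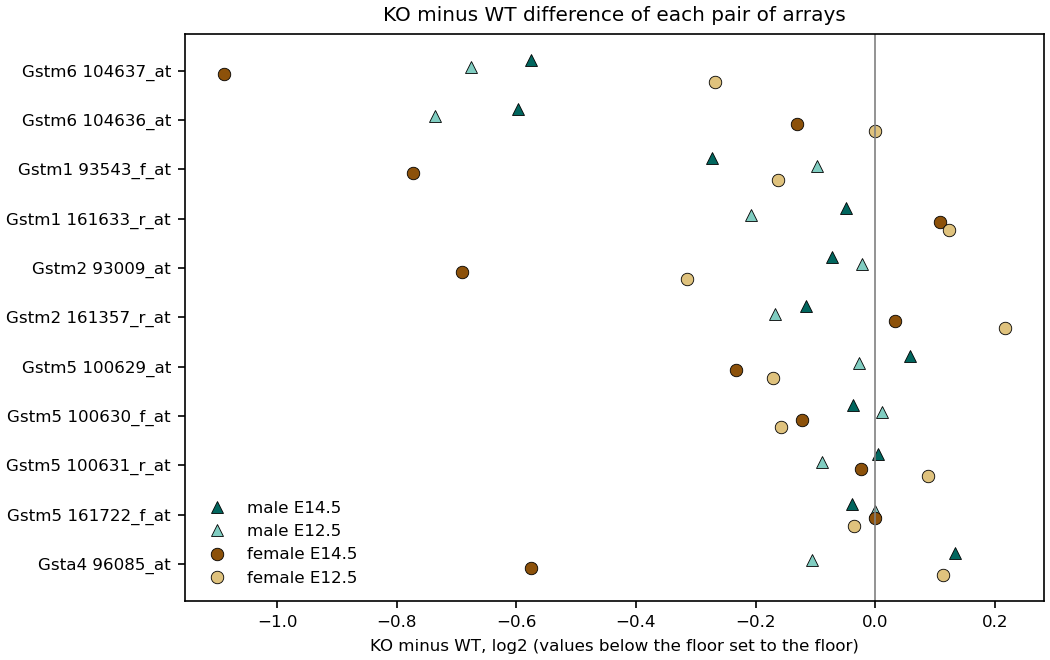
KO minus WT log2 difference of each of the 4 pairs of arrays (male pairs as triangles, female pairs as circles, E14.5 dark, E12.5 light) for the 11 probe sets, with values under the floor set to it. Both Gstm6 probe sets lie between -0.57 and -0.74 in the male pairs, and the female E14.5 pair gives -1.09 for Gstm6 104637_at and -0.77 for Gstm1 93543_f_at.

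Markers of testis cells moved with some of these differences. Of 16 Sertoli genes 10 were fitted. At E12.5, 5 of the 10 were called higher in males, against 7.79% of all fitted probe sets, and none lower, against 8.51%. Over the 12 measured Sertoli genes, the log2 summed level was 12.28 in KO and 12.67 in WT males at E14.5. At E12.5 it was 12.76 in KO and 12.82 in WT males. In females it was 11.62 in KO and 12.13 in WT at E14.5, and 11.76 in KO and 11.66 in WT at E12.5. Amh, made by Sertoli cells, read 9.04 to 9.70 on the male arrays and 7.82 to 8.13 on the female arrays. Of 11 Leydig genes 9 were fitted, and their summed level was 13.20 in KO and 13.71 in WT males at E14.5 and 12.54 in KO and 12.30 in WT males at E12.5, against 12.13 in KO and 12.90 in WT females at E14.5 and 12.10 in KO and 11.98 in WT females at E12.5. In the male E12.5 pair, where Gstm6 104637_at differed by -0.68, the median KO minus WT difference of the Sertoli list was 0.00 and that of the Leydig list 0.25. In the female E14.5 pair the medians were -0.36 and -0.60, and in the male E14.5 pair -0.47 and -0.54. Insl3, a Leydig cell hormone, was above the floor on the 2 E14.5 male arrays only, at 7.55 in KO and 7.56 in WT. Its probe set has the suffix _r, however. All fitted _r_at probe sets had a median male minus female difference of 0.72 at E14.5, with quartiles of 0.23 and 1.15. The part of the suffix in the Insl3 values was not tested. Of 10 fitted pregranulosa genes 3 were called lower in males at E12.5, against 8.51% of all fitted probe sets, and none higher, against 7.79%. Leaving out any 1 array ended these E12.5 calls of both lists. The median KO minus WT difference of the pregranulosa genes was 0.34 in the male E14.5 pair and -0.18 in the male E12.5 pair. It was -0.48 in the female E14.5 pair and -0.61 in the female E12.5 pair. The part of these cells in the values of Gstm6, Gstm1 and Gstm2 was not tested, and in whole gonads fewer cells of a type and less RNA per cell cannot be told apart.

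**Figure D5:**
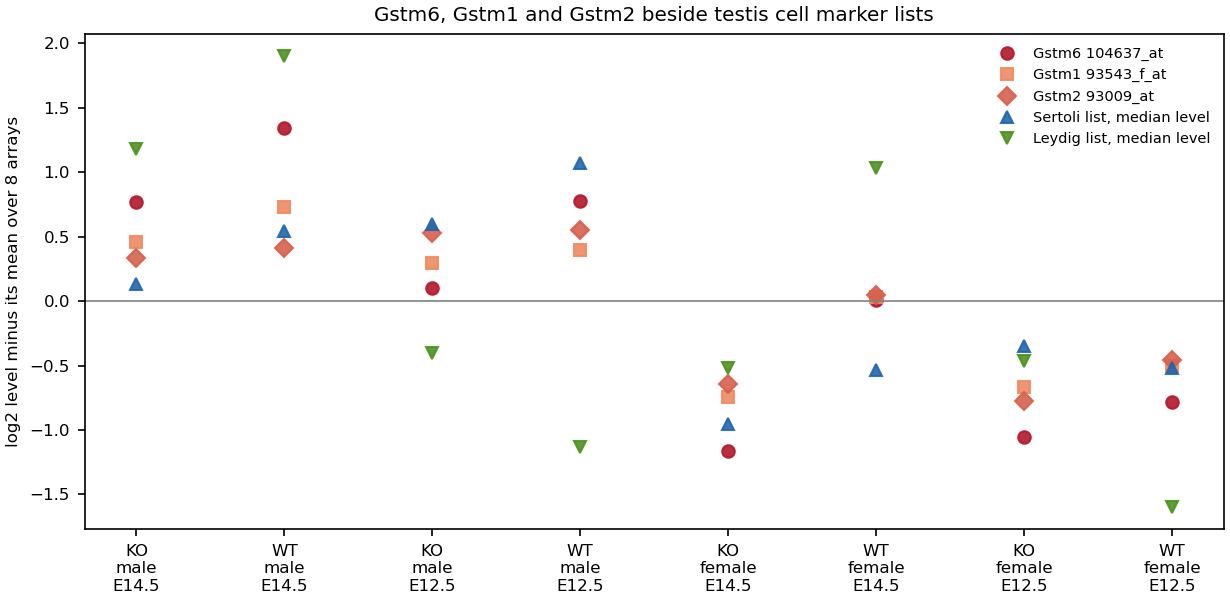
Log2 level of Gstm6 104637_at, Gstm1 93543_f_at, Gstm2 93009_at and the median levels of the Sertoli and Leydig lists on each array, each minus its own mean over the 8 arrays; arrays run from KO male E14.5 to WT female E12.5. The 3 transferase genes lie above 0 on all 4 male arrays, and on the WT female E14.5 array they lie near 0 and above the other 3 female arrays.

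By Pearson r over the 8 arrays, among probe sets of genes outside the transferases, the 6 genes most like Gstm6 104637_at were Rnd2 (0.98), Ptgds (0.97), Col9a3 (0.97), Nsun2 (0.96), Tomm34 (0.96) and Trim47 (0.96). Those most like Gstm1 93543_f_at were Tomm34 (0.99), Ptgds (0.99), Col9a3 (0.99), Rnd2 (0.98), Cst9 (0.96) and Pheta1 (0.96). For Gstm2 93009_at they were Crcp (0.97), Tomm34 (0.96), Tmem109 (0.96), Cst9 (0.95), Slc7a5 (0.95) and Col9a3 (0.95). Tomm34 and Col9a3 stood in all 3 lists. Over the 6 arrays without the E14.5 males the lists changed: Gstm6 was then most like Riok1 (0.99), Ak3 (0.98), Nsun2 (0.97), Cenpk (0.97), Tent5c (0.97) and Prxl2a (0.97), so that Nsun2 alone stood in both Gstm6 lists. The arrays of 1 sex share much of their pattern, and these values come from the highest of 7576 probe sets compared.

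The other glutathione genes on the array gave calls by sex at E12.5 in both directions, to be read beside the 7.79% of all fitted probe sets called higher and the 8.51% called lower. Gstm3, the remaining mu class gene on the array, differed there by 0.14 ± 0.15 (adjusted p = 0.580), and at E14.5 by 1.45 ± 0.15 (adjusted p = 0.000675). Of the 11 fitted transferases outside the mu class, Gsta4 among them, none was called higher in males at E12.5 and 2 were called lower. These were the kappa class Gstk1 (-0.60 ± 0.07, adjusted p = 0.0222) and the zeta class Gstz1 (-0.38 ± 0.08, adjusted p = 0.0471). Of 8 genes of glutathione synthesis and recycling 1 was called, Gclm, the modifier subunit of the rate-limiting enzyme, which was higher in males by 0.55 ± 0.07 (adjusted p = 0.0239) and was also the only call among 13 NRF2 pathway genes. Of 16 genes that handle peroxide, superoxide or oxidised thiols 1 was called, the mitochondrial superoxide dismutase Sod2, higher by 0.49 ± 0.05 (adjusted p = 0.0219). Of 10 genes of conjugate export and aldehyde clearance, Akr1b8 was higher by 0.86 ± 0.13 (adjusted p = 0.0260) and Aldh3a1 lower by -0.46 ± 0.05 (adjusted p = 0.0220). Leaving out any 1 array ended all of these E12.5 calls. With 1 probe set per gene, the one with the highest mean signal, the median of those 11 transferases was -0.13 and that of the 5 mu class genes 0.93. That choice took 93009_at for Gstm2 and 100630_f_at for Gstm5, and the median over all 11 probe sets was the 0.35 given above, beside 0.00 for all fitted probe sets.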

How the data were processed

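RNA of mouse embryonic gonads was measured on 8 one-colour arrays. The deposited values are log2 signals made with MAS5, per the submitters' processing notes, whose version and scaling are not stated there, and the log2 scale was read from the values, which ran from 2.36 to 15.0. In the deposited KO male E12.5 column, 14 other cells held spreadsheet dates in place of signals and were set to missing. Array medians of 7.04 to 7.85 were centred on their mean. Values under the 40th percentile (6.99) were set to that floor, probe sets above it on at least 2 arrays were kept and 66 controls were dropped, leaving 8452 probe sets. In the platform annotation 10855 probe sets name 1 gene, 396 name several and 1237 name none.

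The limma package (3.58.1, R 4.3.3) tested sex and stage differences over the 8 arrays together (sex × genotype plus sex × stage, intensity trend, Benjamini-Hochberg adjustment over 8452 probe sets at 0.05, two-sided), after a check on simulated data. With 1 array per group, the error has 2 residual degrees of freedom, given by how the genotype difference varies with stage within a sex, so p-values measure only that spread, which may be technical. The number of arrays limits the precision. The members and all gene lists were chosen with earlier results of these data known. Named were all member probe sets, up to 4 genes per list and comparison by smallest p, the 6 genes most like Gstm6, Gstm1 and Gstm2, and genes that check the labels. Alternatives changed the floor, filter, centring, normalization, genotype term, trend and arrays.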

Additional observations from a re-analysis of the deposited data

Results flagged for a closer look

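Several probe sets gave differences of opposite sign in 2 groups, in every pair of arrays, and in each case the difference between the groups was not tested. For Gstm5, male minus female of 100629_at was -0.43 in KO and -0.71 in WT at E14.5, against 0.42 in KO and 0.28 in WT at E12.5. For 100631_r_at it was 0.60 in KO and 0.57 in WT at E14.5, against -0.55 in KO and -0.38 in WT at E12.5. For 100630_f_at it was 0.11 in KO and 0.021 in WT at E14.5, against -0.016 in KO and -0.18 in WT at E12.5. For Gstm2 161357_r_at it was 0.83 in KO and 0.98 in WT at E14.5, against -0.42 in KO and -0.031 in WT at E12.5.

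KO minus WT of Gstm2 161357_r_at was -0.12 at E14.5 and -0.17 at E12.5 in males, against 0.034 at E14.5 and 0.22 at E12.5 in females. KO minus WT of Gstm1 161633_r_at was -0.049 at E14.5 and -0.21 at E12.5 in males, against 0.11 at E14.5 and 0.12 at E12.5 in females. E14.5 minus E12.5 of Gstm2 93009_at was -0.19 in KO and -0.14 in WT males, against 0.13 in KO and 0.51 in WT females.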

How the results depend on the processing

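Of the values of single probe sets under the alternatives, 842 counted as unchanged, 98 lost and 13 gained a call, 52 moved and 29 changed sign. For sex and stage, unchanged means the same direction and side of the threshold. For KO minus WT, which has no call, unchanged means a shift smaller than the SE and moved means a larger one. Sign changes were counted for sex and stage only. The cause of these changes was not tested. No paired analysis was possible because the labels give no replicate numbers. Over all probe sets, 1377 were called by sex at E12.5, 6551 by sex at E14.5, 1949 by stage in females and 6578 by stage in males. With no filter the E12.5 sex count was 31 and the female stage count 40, and on the values as deposited they were 2873 and 5156, the second split into 270 higher and 4886 lower beside 711 and 1238, and the male stage calls were split into 787 and 6329 beside 3209 and 3369; quantile normalization gave 849 and 883 for the female stage. In limma, leaving out any 1 array gave 0 for both (1609 to 2584 and 1936 to 2737 at an unadjusted p under 0.05), as did leaving out the 2 E14.5 male arrays (2575 and 2725), which also removes the E14.5 sex and male stage comparisons; with 1 array left out the E14.5 sex count ran from 4892 to 6135 and the male stage count from 4982 to 6146. The median KO minus WT of the 11 probe sets in females was -0.14, and was -0.065 with quantile normalization and -0.14 to -0.035 with 1 array left out; in males it was -0.047, and -0.097 to -0.047 with 1 array left out. On the values as deposited these signs turned: by sex, Gstm5 100630_f_at at E12.5 (0.040) and E14.5 (-0.32) and Gsta4 at E14.5 (-0.36); by stage in females, Gstm5 100629_at (-0.22) and 100630_f_at (-0.20), Gstm2 161357_r_at (-0.17) and Gstm1 93543_f_at (-0.025); by stage in males, Gstm5 100630_f_at (-0.56), Gstm6 104636_at (-0.44) and 104637_at (-0.17), Gstm1 93543_f_at (-0.53) and Gsta4 (-0.58). Quantile normalization turned Gstm5 100631_r_at by stage in females (0.054) and Gstm2 93009_at by stage in males (0.13). With 1 array left out, by stage in females, Gstm5 100629_at ran from -0.0011 to 0.061, Gstm6 104637_at from -0.028 to 0.79, Gstm2 161357_r_at from -0.0067 to 0.18, Gstm1 93543_f_at from -0.077 to 0.53, Gstm5 100631_r_at from -0.086 to 0.025 and Gsta4 from -0.61 to 0.075. By sex, Gstm5 161722_f_at at E12.5 ran from -0.037 to 0.0019 and Gsta4 at E14.5 from -0.31 to 0.38, with -0.087 without the KO male E14.5 array. With 1 genotype term, Gstm6 104636_at (adjusted p = 0.106) and Gstm5 100629_at (adjusted p = 0.0549) lost their E12.5 sex calls.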

Other observations

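Between the stages in females, where 8.41% of all fitted probe sets were called higher and 14.6% lower at E14.5, genes that handle peroxide, superoxide or oxidised thiols were called in both directions. Of 16 genes of that list 4 were called higher and 4 lower. Sod2, the mitochondrial superoxide dismutase, was higher at E14.5 by 0.72 ± 0.05 (adjusted p = 0.00869), Prdx4, a peroxiredoxin of the endoplasmic reticulum, by 0.43 ± 0.06 (adjusted p = 0.0142) and the catalase gene Cat by 0.34 ± 0.06 (adjusted p = 0.0226). Txnrd1, the cytosolic thioredoxin reductase, was lower by -0.65 ± 0.08 (adjusted p = 0.0130). Among the transferases outside the mu class 2 were called higher and 2 lower, with Gsta2 of the alpha class at 0.48 ± 0.07 (adjusted p = 0.0167) and Gsto1 of the omega class at -0.42 ± 0.08 (adjusted p = 0.0289). Leaving out any 1 array ended all of these calls.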
